A study of Mus musculus with 22 samples.

Results

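The interaction of a mutant oncogene and loss of Wt1 was measured in mouse embryonic fibroblasts (MEFs), primary connective tissue cells grown from embryos. For each gene it is the oncogene effect in cells without Wt1 minus the oncogene effect in cells with Wt1, on the log2 scale. It is 0 where both alterations add up. The arrays were chosen by their labels: 21 of the 22 arrays of the series enter, and 18193 genes were measured, each by its brightest probe set that names 1 gene. The control group (5 arrays) is labelled wild type and received an adenovirus carrying GFP. The oncogene group (5 arrays) carries a silent mutant allele that adenoviral Cre switches on. The Wt1-null group (4 arrays) comes from Wt1f/f MEFs given adenoviral Cre, which removes the floxed gene; for 3 of these arrays the labels say only Wt1-null. The double group (7 arrays) received adenoviral Cre to do both. RNA was taken 7 days after infection in all groups. The comparison asks whether the cells' response to the oncogene depends on Wt1.

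Several facts of the design bear on every value. All altered cells received Cre virus and the controls did not. A response to Cre virus therefore enters the oncogene effect and the Wt1 effect once each and the double cells once, and gives an interaction of the opposite sign; it cannot be told apart from a sub-additive genetic effect. An error in the control mean acts the same way. The oncogene effect with Wt1, the Wt1 effect and the double effect share the control arrays, so their values are set side by side and their likeness is not tested. Whether the replicates are different embryos or only different dishes is not in the labels, and the p-values cover no more than the array-to-array spread, which may be technical. Wt1-null replicate 2 was left out because it is nearly identical to double replicate 2, with a correlation of 0.998 and an SD of the difference of 0.149. The labels do not settle which of these arrays, if either, holds the wrong sample, and double replicate 2 was kept. Without double replicate 2 limma called 0 interactions, with Trib3 at 3.25 and Car6 at 2.07 (limma adjusted p = 0.0898 for both), and loss of Wt1 alone was called for 5 genes. Wt1-null replicates 3 and 4 were also very close, with an SD of the difference of 0.158; the closest other pair of 1 group had 0.242. Double replicate 4 and oncogene replicate 4 had the lowest mean correlations with the other arrays, 0.931 and 0.958. Accession numbers fall into 3 sets, none of which holds all 4 groups, so no interaction can be given within a set. All double arrays lie in a set that holds no Wt1-null array, and most control and oncogene arrays lie in that set too. In the direct comparison a difference between sets cannot be told apart from the oncogene effect without Wt1. It also enters most of the Wt1 effect without the oncogene.

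The mutant oncogene signals through the MAPK cascade, a chain of kinases that ends in transcription factors and in feedback genes such as Spry and Dusp, and in primary fibroblasts it can drive either proliferation or senescence. Wt1 is a zinc finger transcription factor of the developing kidney, gonad and mesothelium. ATF4 is the transcription factor of the integrated stress response: when amino acids are short or the ER is stressed, its protein is made more and it switches on amino acid transporters, biosynthetic enzymes and aminoacyl-tRNA synthetases. Trib3, a pseudokinase, and Chac1, which degrades glutathione, are among its most responsive targets.

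The cells carried fibroblast genes throughout. The mean level of 11 fibroblast markers was 13.12 ± 0.36 (SD, n = 5) in controls and 13.33 ± 0.22 (SD, n = 7) in double cells, on the log2 scale of RMA. Macrophage markers averaged between 5.75 and 5.95 by group, and endothelial markers between 5.71 and 5.91. The muscle, adipocyte, chondrocyte and bone, and epithelial and mesothelial lists averaged between 5.71 and 6.95. Neural and glial markers were higher, from 7.43 in controls to 8.13 in double cells. The leukocyte gene Ptprc averaged 4.67 in controls and the endothelial gene Pecam1 4.69. Wt1 itself was near background, at 4.22 to 4.46 in control arrays and 4.35 to 4.72 in Wt1-null arrays, so these arrays do not check its deletion. Its interaction was -0.26 ± 0.14 (SE; limma adjusted p = 0.517).

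A call is an adjusted p below 0.05 in limma, a linear model that borrows the spread across genes, with Benjamini-Hochberg adjustment over all 18193 genes. The interaction was called for 2 genes, which is 0.011% of those tested, and both were positive. At an unadjusted p below 0.05 there were 1897 genes. The interaction rests on all 4 group means and its median SE over genes was 0.221, against 0.157 for the oncogene effect with Wt1. The oncogene effect was called for 485 genes with Wt1 (2.67%) and 926 genes without it (5.09%). Loss of Wt1 was called for 13 genes without the oncogene (0.0715%) and for 0 with it by limma, where 676 genes had an unadjusted p below 0.05. Double against control cells gave 1285 calls (7.06%). With Wt1-null replicate 2 included, the oncogene effect without Wt1 was called for 15 genes in place of 926.

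Trib3 was the gene with the largest called interaction. Its level in the 5 control arrays was 10.47, 10.83, 11.19, 10.85 and 10.79. In the oncogene arrays it was 6.3, 7.68, 7.39, 7.15 and 6.90. In the Wt1-null arrays it was 9.56, 7.45, 7.52 and 6.82. In the double arrays the lowest was 6.95, the median 7.28 and the highest 8.06. Every altered array lay below every control array, and the 3 altered groups overlapped one another. Trib3 fell by 3.74 with the oncogene alone and by 2.99 with loss of Wt1 alone, a sum of -6.73, while the double effect was -3.50. The interaction was 3.22 ± 0.51 (SE; limma adjusted p = 0.0481). A second Trib3 probe set gave 3.65.

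Car6, a secreted carbonic anhydrase of saliva with a stress-inducible form, was the other called gene. Its control arrays read 8.26, 8.04, 7.66, 6.93 and 7.48. The oncogene arrays read 5.41, 5.34, 5.19, 5.31 and 5.27, and the Wt1-null arrays 6.57, 5.21, 5.14 and 5.26. The double arrays ran from 5.10 through a median of 5.21 to 5.44. All control arrays lay above all altered arrays, and Wt1-null replicate 1 was the highest of the altered arrays. The single effects were -2.37 and -2.13, the sum -4.50 and the double effect -2.44. The interaction was 2.06 ± 0.33 (SE; limma adjusted p = 0.0481). Both calls stood close to the threshold: of the 21 fits that leave out 1 array, Trib3 was called in 1 and Car6 in 2. Without Wt1-null replicate 1, which held the highest value of that group for both genes, 4 interactions were called, and Trib3 reached 3.80 and Car6 2.40.

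**Figure D1:**
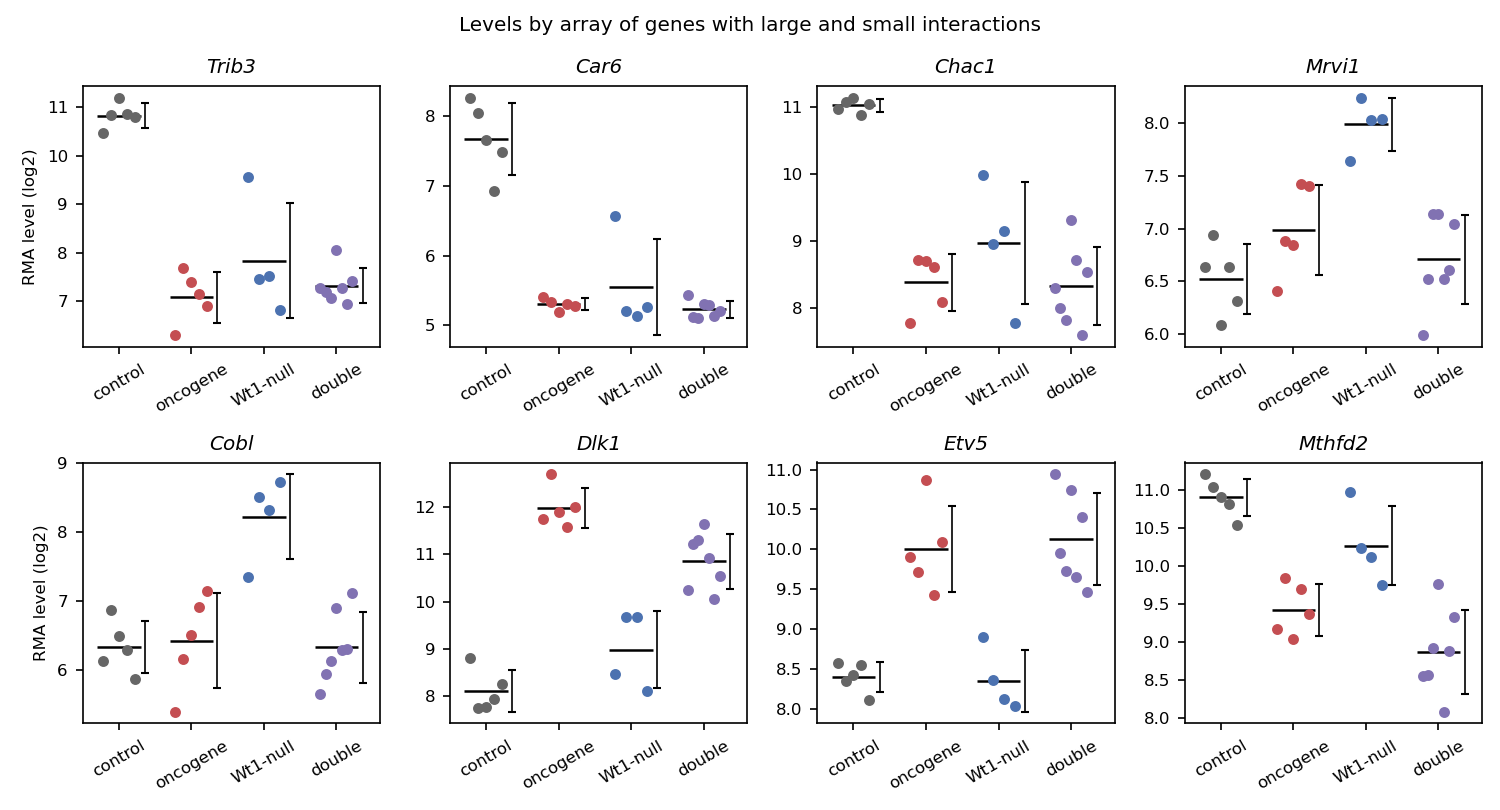
RMA level (log2) of 8 genes in each array used, by group; points are arrays, lines group means and bars 1 SD. Trib3, Car6 and Chac1 are high only in controls, Mrvi1 and Cobl are high only in Wt1-null cells, Dlk1 has a smaller oncogene difference without Wt1, and Etv5 and Mthfd2 shift with the oncogene in both backgrounds.

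The ATF4 list held 33 measured genes. Of these 30 had a positive interaction and 3 a negative one, with a median of 0.795 against 0.062 over all genes, and 1 (Trib3) was called. The oncogene alone lowered 15 of the 33 (median -0.869; 0.978% of all genes were called lower) and loss of Wt1 alone lowered 4 (median -0.739; 0.044% of all genes). Those 4 were Trib3, Chac1, Vldlr and Aldh1l2, a mitochondrial folate enzyme. In double cells 22 were lower than in controls (median -1.048; 2.87% of all genes), where the sum of the single effects had a median of -1.731. Added to Wt1-null cells, the oncogene lowered 5 and raised 1, the hormone gene Stc2 (median -0.236; 1.86% and 3.23% of all genes). The mean of the list was 10.77 ± 0.15 (SD, n = 5) in controls, 9.69 ± 0.17 (SD, n = 5) with the oncogene, 9.89 ± 0.51 (SD, n = 4) without Wt1 and 9.62 ± 0.22 (SD, n = 7) in double cells. Within the Wt1-null group it was 10.56 in replicate 1 and 9.31 in replicate 5.

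Chac1 followed Trib3 but did not reach the threshold. It read 10.98, 11.08, 11.14, 10.88 and 11.05 in controls, and 7.77, 8.72, 8.70, 8.61 and 8.09 with the oncogene. The Wt1-null arrays read 9.99, 8.95, 9.15 and 7.77, and the double arrays 7.59 at the lowest, 8.29 at the median and 9.31 at the highest. Again only the controls stood apart. Its single effects were -2.65 and -2.06, the double effect -2.70 and the interaction 2.0 ± 0.47 (SE; limma adjusted p = 0.418). Ddit3, the stress factor CHOP, and Pck2, the mitochondrial PEP carboxykinase, had interactions of 1.60 and 1.67, with oncogene effects of -1.56 and -1.64 with Wt1 and 0.04 for both without it. The asparagine synthetase Asns and the glycine transporter Slc6a9 had 1.09 and 1.26. Not all of the list did this. The mitochondrial folate enzyme Mthfd2 fell by 1.48 with the oncogene in cells with Wt1 and by 1.40 in cells without it. Psat1, of serine synthesis, had oncogene effects of -0.73 and -0.75, the second of them called, and Atf4 itself -0.86 and -0.67, neither called. The arginine transporter Slc7a1 went the other way, with an interaction of -0.99.

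ATF4 binds C/EBP-ATF response elements, which join parts of a C/EBP and an ATF site. The sequence TGATGNAAN was searched on both strands in the windows from 250 bases before to 50 bases after the start sites given by RefSeq (GRCm38.p6). Of the 26 list members with such a window 10 held a match (38.5%), against 1215 of 27025 genes (4.5%). A few are shown, with flanks before the start site and the match in capitals, as examples of members with a match; Slc7a11 and Vldlr had interactions of 0.65 and 1.12, neither called.
Chac1: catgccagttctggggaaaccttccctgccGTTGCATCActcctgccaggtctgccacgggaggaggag
Asns: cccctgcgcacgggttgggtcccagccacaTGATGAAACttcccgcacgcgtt
Pck2: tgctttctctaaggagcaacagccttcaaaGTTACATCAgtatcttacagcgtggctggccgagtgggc
Slc7a11: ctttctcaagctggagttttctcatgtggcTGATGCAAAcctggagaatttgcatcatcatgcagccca
Vldlr: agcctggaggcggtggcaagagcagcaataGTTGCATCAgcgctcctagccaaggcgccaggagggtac
They lie at chr2:119351018-119351086 (plus strand), chr6:7693210-7693262 (minus), chr14:55540132-55540200 (plus), chr3:50443641-50443709 (minus) and chr19:27216789-27216857 (plus). Slc7a11, the cystine transporter, holds a second match, TTTGCATCA, 9 bases on in the same window. In Trib3 a match begins 13 bases after the start site. No match was recorded for the list members Ddit3, Mthfd2 and Psat1, which may be among those without a window. Car6 lies outside the list and was not searched. None of this speaks to binding elsewhere.

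Outside the ATF4 list, Acot2, an acyl-CoA thioesterase, had the same shape. It was 9.67, 9.84, 9.86, 9.56 and 9.99 in controls and 8.38, 8.28, 8.08, 7.64 and 7.50 with the oncogene. It was 9.38, 7.70, 7.62 and 7.61 in Wt1-null cells and between 7.85 and 8.22 in double cells. No altered array reached the lowest control array. The interaction was 1.75 ± 0.36 (SE; limma adjusted p = 0.281), and a second, dimmer probe set gave 0.26. Artn, a neurotrophic ligand of the RET receptor, had 1.88 ± 0.45 (SE; limma adjusted p = 0.418), with single effects of -1.94 and -1.70 and a double effect of -1.75. The phosphoinositide 3-kinase inhibitor Pik3ip1 had an interaction of 1.45, with an oncogene effect of 0.01 with Wt1 and a called one of 1.47 without it. The granzyme B inhibitor Serpinb9 had 1.09, and fell by 0.94 with loss of Wt1 alone. Wdpcp, a planar polarity and cilium gene, Ddrgk1, of ER ufmylation, and Nrarp, a Notch feedback gene, had 0.76, 0.61 and 0.65; another probe set of Ddrgk1 gave -0.13 and another of Wdpcp -0.01.

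The second group of large interactions was negative: levels were high with loss of Wt1 alone and not in double cells. None of these passed the threshold. Mrvi1, a cGMP kinase substrate of smooth muscle, read 6.64, 6.94, 6.09, 6.64 and 6.31 in controls and 6.41, 6.88, 6.84, 7.42 and 7.4 with the oncogene. The Wt1-null arrays read 7.64, 8.24, 8.03 and 8.04, above every other array. The double arrays ran from 5.99 through 6.61 to 7.14. Loss of Wt1 alone raised it by 1.46 (limma adjusted p = 0.0335) and the oncogene lowered it by 1.28 in cells without Wt1 (limma adjusted p = 0.003). The interaction was -1.75 ± 0.32 (SE; limma adjusted p = 0.166), and a dimmer probe set gave -0.82.

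Cobl, an actin nucleator, read 7.34, 8.50, 8.32 and 8.73 without Wt1, against 5.87 to 6.87 in controls, 5.39 to 7.14 with the oncogene and 5.65 to 7.11 in double cells. The Wt1-null arrays again stood alone. Its interaction was -1.99 ± 0.47 (SE; limma adjusted p = 0.418), and a second probe set gave -0.10. Pik3cb, a catalytic subunit of phosphoinositide 3-kinase, had Wt1-null values of 7.92, 7.24, 7.29 and 7.23 and no other array above 6.8. Its interaction was -1.42 ± 0.30 (SE; limma adjusted p = 0.284). Fgf2, a fibroblast mitogen, had -2.03, with a Wt1 effect of 2.27 that was not called. The muscle myosin gene Myh1 had -3.19, and other probe sets of it gave -3.27 and 0.10; 12 skeletal muscle markers together had a median interaction of -0.10 and averaged 6.32 ± 0.15 (SD, n = 4) in Wt1-null arrays and 5.71 ± 0.19 (SD, n = 7) in double arrays, and the part of muscle cells in this difference was not tested.

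Pom121, a nuclear pore protein, was sub-additive upwards. It was 9.93, 9.62, 9.70, 9.65 and 9.62 in controls, 10.57 to 11.29 with the oncogene, 10.76 to 11.25 without Wt1 and 9.88 to 11.61 in double cells. Both single alterations lay above the controls and the double cells spread over both. The interaction was -1.77 ± 0.34 (SE; limma adjusted p = 0.166), and a dimmer probe set gave -1.13. Dlk1, an imprinted Notch-related inhibitor of adipogenesis, was raised by the oncogene in both backgrounds by unequal amounts. It was 8.81, 7.76, 7.78, 7.95 and 8.26 in controls and 11.74, 12.69, 11.89, 11.58 and 11.99 with the oncogene. It was 8.47, 9.67, 9.68 and 8.10 in Wt1-null cells and between 10.06 and 11.65 in double cells. The oncogene raised it by 3.87 with Wt1 and by 1.87 without, and the interaction was -2.0 ± 0.48 (SE; limma adjusted p = 0.418). A dimmer Dlk1 probe set had oncogene effects of 0.40 and 0.32 and an interaction of -0.07. The neural adhesion gene Nrcam rose by 4.87 and 2.14, with an interaction of -2.73; another of its probe sets had 2.15 and 1.70. Klk10, Fam72a, Simc1, Snrpa1 and Piga had interactions from -1.42 to -1.01, none of them called.

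**Figure D2:**
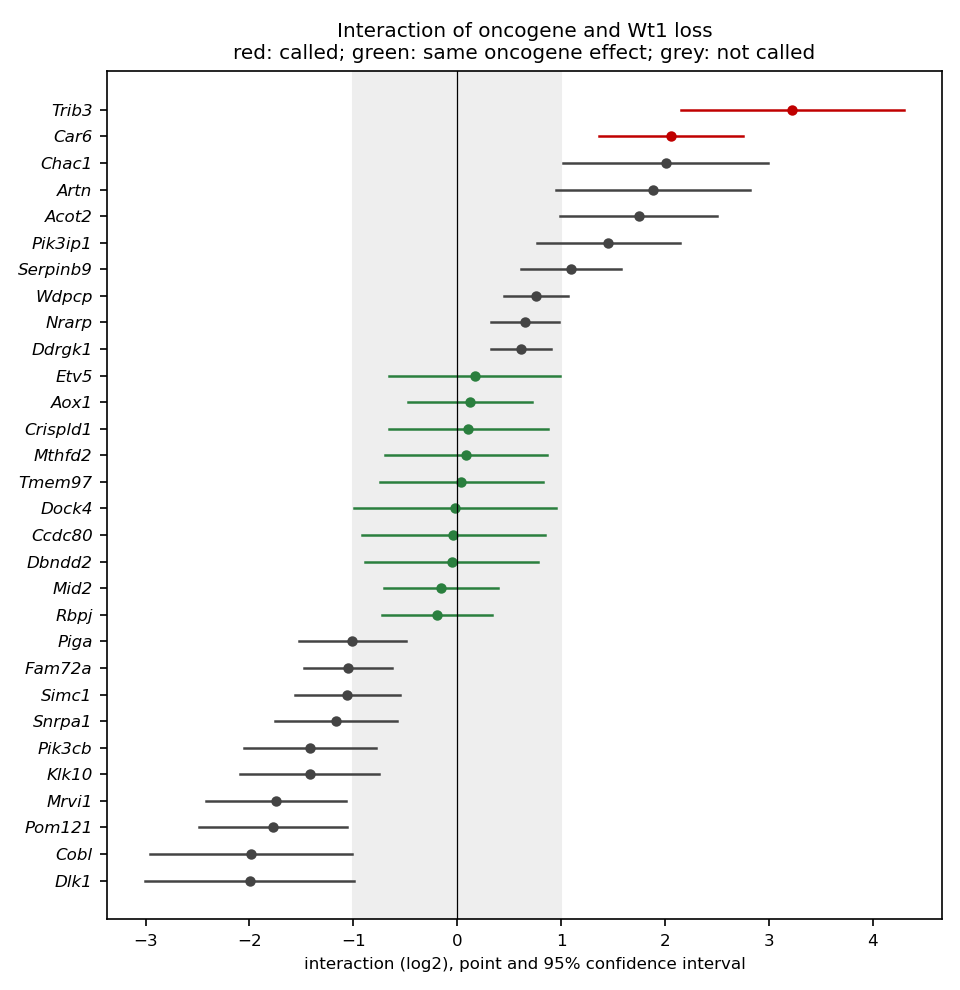
Interaction (log2) of the 20 genes named for it and of the 10 genes named for a like oncogene effect in both backgrounds, with 95% confidence intervals from limma. The shaded band runs from -1 to 1; Trib3 and Car6, in red, were called, and the green intervals lie inside the band.

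Many oncogene effects had one direction with and without Wt1. The oncogene effects with and without Wt1 share no array. Both were called for 200 genes (1.1% of all), 139 higher and 61 lower, and 0 genes were called in opposite directions. Those 200 are 41.2% of the genes called with Wt1 and 21.6% of those called without it. The median size over the 200 was 1.23 with Wt1 and 1.2 without it, and the median interaction, signed by direction, was -0.016. For 109 of them the 95% confidence interval of the interaction lay inside -1 to 1, that is, the oncogene effects in both backgrounds differed by less than a doubling (65 higher, 44 lower); over all genes 69.4% had such an interval. The 485 genes called with Wt1 had a median size of 1.01 there and 0.586 in Wt1-null cells, and 442 kept their sign. The 926 genes called without Wt1 had 0.902 there and 0.445 with it, and 833 kept their sign. The share of all genes with like signs in both backgrounds is not given here, so these sign counts have no baseline. The lists of 485 and 926 genes were each chosen on one effect, which makes that effect the larger. The 200 genes were chosen on both effects in one direction, which favours like medians, and nothing is read from their likeness. Across all genes the Pearson correlation of both effects was 0.492, a description over genes, which are not replicates. With Wt1-null replicate 2 the 200 became 9 and the 109 became 5.

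**Figure D3:**
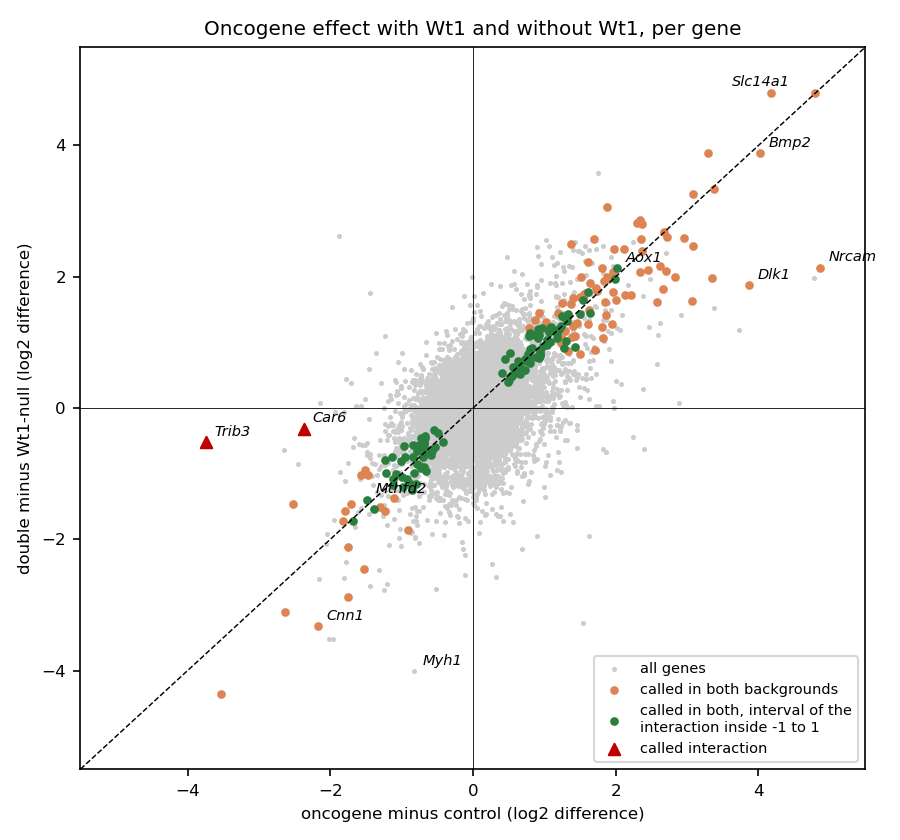
Oncogene effect (log2 difference) in cells with Wt1 against that in cells without it, 1 point per gene; the dashed line marks equal effects. The 200 genes called in both have effects of one sign, and 109 of them (green) have an interval inside -1 to 1. Some of the 200 lie far from the line, such as Nrcam (4.87 and 2.14) and Dlk1 (3.87 and 1.87). Trib3 and Car6 lie off it near 0 on the vertical axis.

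The fitted single effects also sort the 1211 genes called for the oncogene in either background, an effect being counted from 0.5 log2. Where both single effects went one way, the double cells fell short of the sum in 171 genes (sub-additive, 14.1%, against 4.33% of all genes). They went beyond it in 5 (super-additive, 0.413%, against 0.0934%). Single effects were opposed in 64 (5.28%, against 0.489%). Where the oncogene alone passed 0.5, the interaction opposed its effect in 199 genes (16.4%, against 4.96%) and added to it in 238 (19.7%, against 2.54%). Wt1 loss alone passed 0.5 in 132 genes (10.9%, against 5.97%), and the interaction opposed each. The sorting goes by sign, so an opposed effect may be smaller or reversed. Neither passed 0.5 in 402 (33.2%, against 81.6%). Selection on a called oncogene effect moves these shares. The excess of sub-additive over super-additive genes has the direction that the shared controls give by construction, and nothing is read from it.

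Aox1, an aldehyde oxidase, was the clearest of the additive genes that rose. It was 6.51, 6.45, 5.83, 5.93 and 5.43 in controls and 6.03, 6.21, 6.27 and 5.89 in Wt1-null cells. With the oncogene it was 8.16, 8.03, 8.35, 7.65 and 8.06, and in double cells 7.93 to 8.72. The arrays with the oncogene all lay above the arrays without it. It rose by 2.02 with Wt1 and 2.14 without (limma adjusted p = 1.2e-05 and 1.3e-05), with an interaction of 0.12 ± 0.29 (SE; 95% confidence interval -0.48 to 0.71).

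Etv5, an ETS factor downstream of MAPK, was 8.58, 8.35, 8.42, 8.55 and 8.11 in controls, and 9.91, 9.72, 10.87, 9.43 and 10.09 with the oncogene. It was 8.90, 8.36, 8.12 and 8.04 in Wt1-null cells and 9.46 to 10.94 in double cells. The arrays with and without the oncogene did not overlap. Etv5 rose by 1.61 and 1.77, and its dimmer probe sets by 0.62 and 0.83 and by 1.45 and 1.30. Rbpj, the DNA-binding partner of Notch, rose by 1.64 and 1.45, the Rac activator Dock4 by 1.98 and 1.96, and the secreted protein gene Crispld1 by 1.54 and 1.65. Dimmer probe sets of Dock4 showed oncogene effects between 0.05 and 0.51. A dimmer one of Crispld1 showed 1.38 and 1.10, with an interaction of -0.28.

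Among the additive genes that fell, the matrix-associated Ccdc80 was 13.61 to 13.86 in controls and 13.77 to 14.39 in Wt1-null cells. It was 11.53, 11.18, 11.99, 12.86 and 12.88 with the oncogene and 11.46 to 12.87 in double cells. Again no array with the oncogene reached one without it. It fell by 1.68 with Wt1 and by 1.72 without. Mid2, a microtubule-bound ubiquitin ligase, fell by 1.39 and 1.54, Mthfd2 by 1.48 and 1.40, Dbndd2 by 1.12 and 1.17, and Tmem97, the sigma-2 receptor that binds cholesterol, by 1.12 and 1.08. Other probe sets of Dbndd2 showed oncogene effects from -0.44 to 0.20. Some larger effects had less precise interactions: the urea transporter Slc14a1 rose by 4.80 in both backgrounds and the growth factor Bmp2 by 4.03 and 3.88, with intervals of the interaction of -1.99 to 2.01 and -1.97 to 1.69. These last 2 were chosen after their values were seen.

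The cholesterol synthesis genes, which make sterols from acetyl-CoA, had a median interaction near 0. All 17 measured genes had a lower level with the oncogene in both backgrounds. The medians were -0.721 with Wt1 (1 called lower, Lss, against 0.978% of all genes) and -0.798 without it (3 called lower, against 1.86%). The median interaction was 0.023, with 0 called by limma. It was positive in 9 and negative in 8, and 6 of the 17 intervals lay inside -1 to 1, against 69.4% over all genes. Loss of Wt1 alone gave -0.193, with 0 called. The sum of the single effects was -0.858 in the median and double cells were at -0.989, with 10 called lower (2.87% of all genes). Cyp51, the sterol demethylase, had -1.01 and -1.20, and Fdps, the farnesyl diphosphate synthase, -0.84 and -0.82. Lss, which closes the sterol ring, had the smallest interaction p of the list, with 0.53 ± 0.36 (SE; limma adjusted p = 0.591), and other probe sets gave -0.16 and -0.92. The mean of the list was 10.88 ± 0.11 (SD, n = 5) in controls, 10.18 ± 0.35 (SD, n = 5) with the oncogene, 10.69 ± 0.07 (SD, n = 4) without Wt1 and 9.96 ± 0.42 (SD, n = 7) in double cells. Oncogene replicate 1 was 10.80, near the lowest control, and the other oncogene arrays lay at 9.96 to 10.14.

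MAPK output held members with like and with unlike oncogene effects in both backgrounds. With Wt1 all 20 genes had a higher level with the oncogene (median 1.11, 9 called, against 1.69% of all genes). Without Wt1 13 did (median 0.216), with 4 called higher and 1 lower, against 3.23% and 1.86% of all genes. Loss of Wt1 alone gave a median of 0.833 with 2 called higher (0.0275% of all genes), Phlda1 and Errfi1, an inhibitor of the EGF receptor. The sum of single effects was 1.91 in the median and double cells were at 1.06, with 12 called higher (4.19% of all genes). The interaction had a median of -0.748 and was negative in 18 of 20, with 0 called by limma. At an unadjusted p below 0.05 in limma there were 10, against 1897 of all 18193 genes. The mean of the list was 9.36 ± 0.36 (SD, n = 5) in controls, 10.47 ± 0.20 (SD, n = 5) with the oncogene, 10.24 ± 0.33 (SD, n = 4) without Wt1 and 10.56 ± 0.28 (SD, n = 7) in double cells, so the 3 altered groups stood above the controls and overlapped.

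The feedback inhibitors Spry4 and Spry2 and the ERK phosphatase Dusp6 rose with the oncogene in both backgrounds, by 1.31 and 1.32, 1.43 and 0.93, and 2.13 and 1.72. The EGF receptor ligand Ereg had an oncogene effect of 1.18 with Wt1 and -0.94 without it, and Hbegf, another, 1.02 and -0.88, none of them called; both were high with loss of Wt1 alone (1.81 and 2.08, not called). Plaur, the urokinase receptor, read 8.23 to 9.89 in controls, 8.93 to 10.26 with the oncogene, 10.41, 11.23, 11.13 and 11.02 without Wt1 and 8.80 to 10.49 in double cells. It fell by 1.5 with the oncogene in Wt1-null cells and had an interaction of -1.89 ± 0.48 (SE; limma adjusted p = 0.418). Errfi1 and Phlda1 had -1.23 and -1.14.

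**Figure D4:**
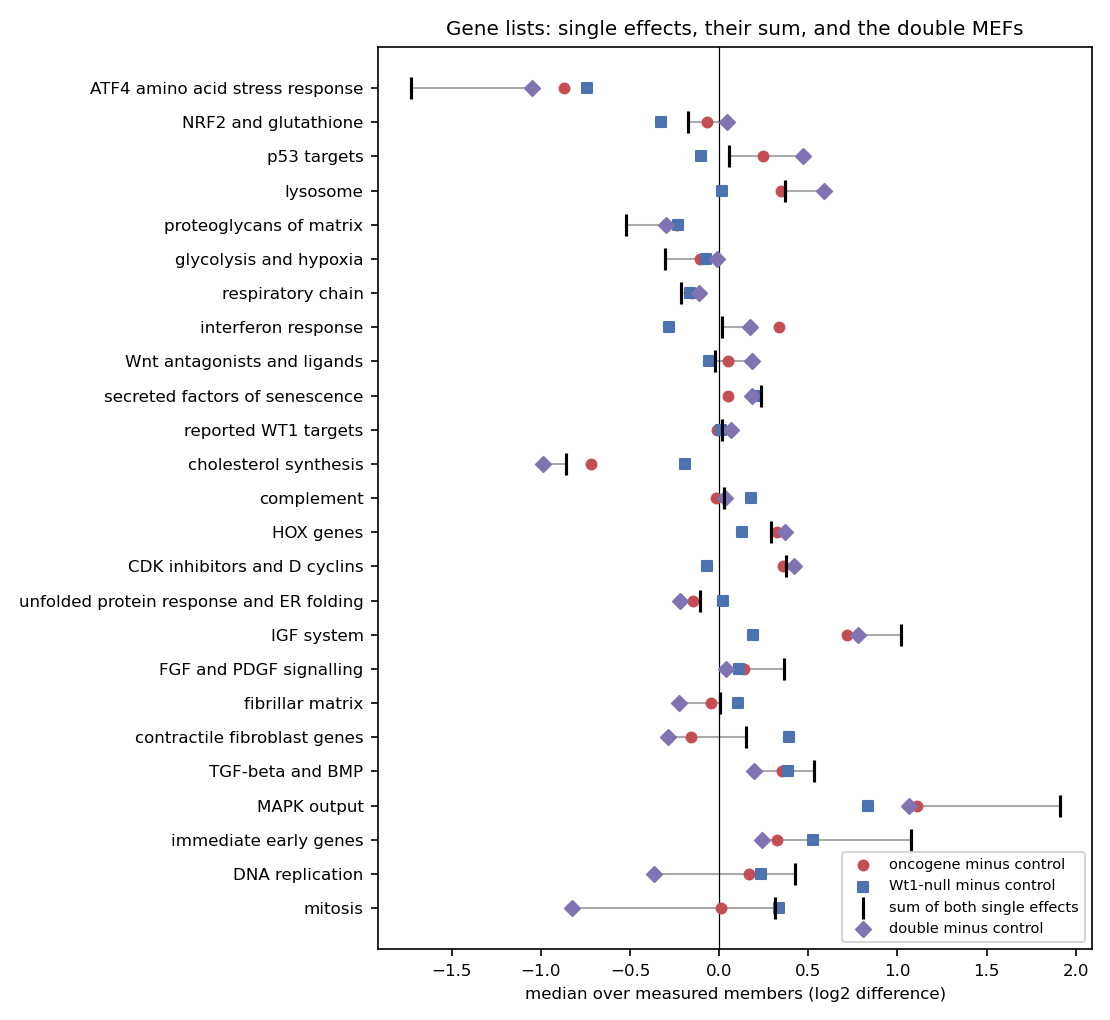
Median over measured members (log2 difference) of 25 gene lists for each single effect, their sum and the double cells; the lists are ordered by their median interaction. The double cells fall short of the sum for the ATF4 and MAPK lists and lie below both single effects for mitosis and DNA replication.

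The cell division genes had negative interactions throughout. For the 26 mitosis genes, among them the kinases Plk1 and Aurka and the spindle protein Tpx2, the oncogene gave a median of 0.011 with Wt1 and -1.15 without it. In Wt1-null cells it lowered 6 (Aurka, Kif20a, Cenpa, Prc1, Birc5 and Tpx2; 1.86% of all genes) and all 26 had a lower value. Loss of Wt1 alone gave 0.334 and loss of Wt1 in oncogene cells -0.892, with 0 called in either. The interaction was negative in 26 of 26 with a median of -1.18; limma called 0 and 15 had an unadjusted p below 0.05. Double cells had 4 called lower than controls (2.87% of all genes). The 26 genes share arrays and are not separate observations.

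The list mean shows how far the arrays differ. It was 10.82, 10.08, 10.37, 10.48 and 10.65 in controls and 10.68, 10.11, 9.83, 11.16 and 10.98 with the oncogene. It was 10.01, 10.97, 10.99 and 11.29 in Wt1-null cells, and 8.65, 9.36 and 10.60 at the lowest, median and highest in double cells. The 4 groups overlapped, and the double group alone spanned most of the scale. Tpx2 read 10.61 to 11.27, 10.40 to 11.34, 10.64 to 11.53 and 9.06 to 10.72 in the same order of groups. Its interaction was -1.20 ± 0.38 (SE; limma adjusted p = 0.444). Another probe set gave -1.17, and 2 dimmer ones gave -0.07 and -0.13. With Wt1-null replicate 2 the list's median interaction was -0.86. Fewer dividing cells and less RNA per dividing cell cannot be told apart here.

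**Figure D5:**
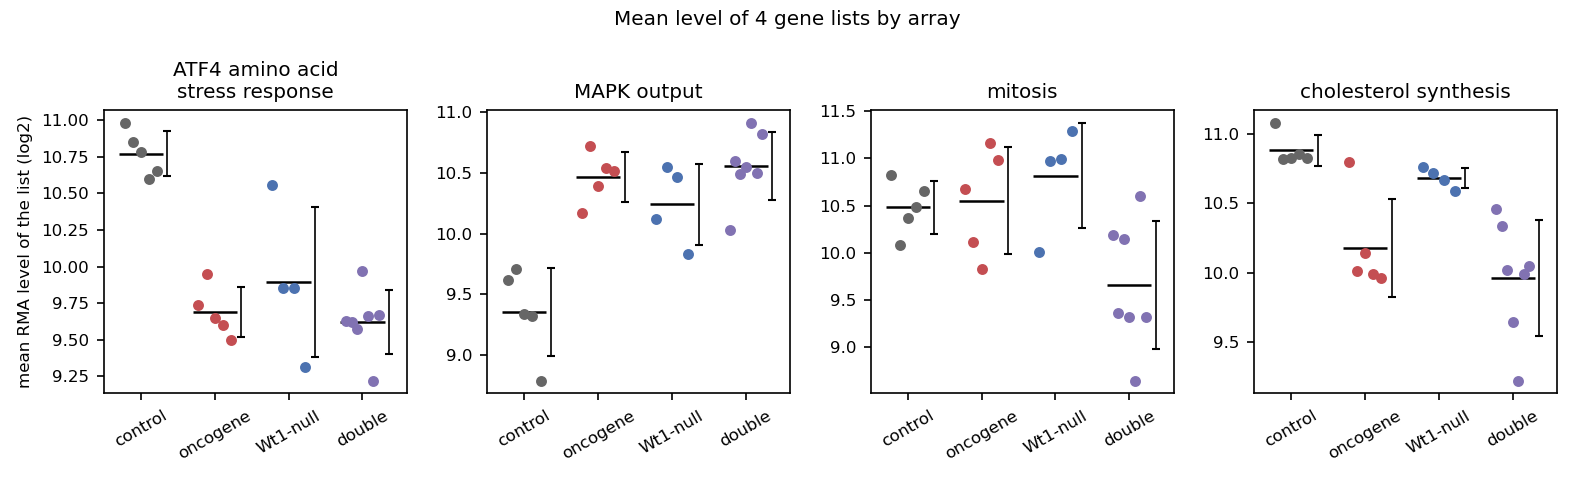
Mean RMA level (log2) over the members of 4 gene lists in each array used, by group; lines are group means and bars 1 SD. Controls are highest for the ATF4 list and lowest for MAPK output, double cells are lowest for mitosis with wide spread, and both oncogene groups are low for cholesterol synthesis.

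Promoters of mitosis genes are known to carry cell cycle homology regions. The letters TTTGAA, on both strands, were in the windows of 17 of 22 mitosis genes with one (77.3%), against 20.2% of all genes, and CCAAT in 18 of 22 (81.8%), against 41.1%. For members with a limma interaction p below 0.05 before adjustment, 1 match before the start site is shown in capitals. Cdk1 and Top2a hold further matches that begin at -15 and -23 from the start site.
Cdk1: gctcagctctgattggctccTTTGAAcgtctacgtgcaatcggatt
Cdc20: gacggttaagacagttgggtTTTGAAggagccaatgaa
Top2a: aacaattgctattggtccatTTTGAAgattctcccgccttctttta
Prc1: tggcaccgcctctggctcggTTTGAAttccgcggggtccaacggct
They lie at chr10:69352958-69353003 (minus strand), chr4:118437344-118437381 (minus), chr11:99024343-99024388 (minus) and chr7:80294426-80294471 (plus).

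DNA replication genes had the same signs. All 29 had a negative interaction (median -0.941), with 0 called by limma. The oncogene gave 0.169 with Wt1 (1 called higher, E2f2; 1.69% of all genes) and -0.613 without it (2 called lower, the origin protein Orc1 and the ribonucleotide reductase subunit Rrm1; 1.86% of all genes). The licensing factor Cdc6 had -1.48 and the sliding clamp Pcna -1.05, neither called. E2F letters TTTNGCGC, on both strands, were in 9 of 25 windows (36%), against 1.57% of all genes. Cyclin D1 couples growth signals to the cell cycle. Its gene Ccnd1 had oncogene effects of 0.54 and 0.51, and their likeness was not tested. Cdkn2a, the INK4A and ARF gene, had oncogene effects of 0.70 and 1.44, not called, and was called higher in double cells than in controls (1.42). The 19 p53 targets had a median interaction of 0.258; Gadd45a had 2.34 ± 0.70 (SE; limma adjusted p = 0.444), and the xylulose reductase Dcxr rose by 1.99 with the oncogene in Wt1-null cells and had -0.01 with Wt1, a difference of 2.0 that was not called.

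Contractile genes had negative interactions. In Wt1-null cells the oncogene lowered 11 of 18 (median -0.614; 1.86% of all genes), against 1, the smooth muscle calponin Cnn1, with Wt1 (median -0.16; 0.978% of all genes). The interaction was negative in 17 of 18, with a median of -0.524 and 0 called by limma. Cnn1 fell by 2.18 and 3.32, and Myl9 had -0.80 and a called -1.72. The Wt1-null group had the highest mean, 12.80 ± 0.10 (SD, n = 4), against 12.36 ± 0.24 (SD, n = 5) in controls, 11.93 ± 0.33 (SD, n = 5) with the oncogene and 11.79 ± 0.34 (SD, n = 7) in double cells. Of 24 TGF-beta and BMP genes 20 had a negative interaction (median -0.638), 0 called by limma. The ligands Tgfb2 and Tgfb3 fell by 1.79 and 1.40 with the oncogene in Wt1-null cells, where with Wt1 they had -0.79 and -0.61. Bmp2 and the co-receptor Tgfbr3 (1.46 and 1.30) rose in both backgrounds. Among 18 immediate early genes (median interaction -0.766) Egr3 rose by 2.88 with the oncogene where Wt1 was present and had 0.08 where it was absent; its interaction of -2.80 was not called. Srf, the serum response factor, had -1.44, and a dimmer probe set of it -0.55.

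Other lists lay nearer the all-gene median of 0.062. Lysosomal genes rose with the oncogene, 3 of 15 with Wt1 and 9 of 15 without (medians 0.345 and 0.531; 1.69% and 3.23% of all genes), and 11 of 15 had an interval of the interaction inside -1 to 1, against 69.4% of all genes; the protease genes Ctsd and the acid glucosidase Gaa were called in both, by 0.53 and 0.84 and by 0.77 and 0.73. NRF2 and glutathione genes had a median interaction of 0.403. Glutathione reductase Gsr had oncogene effects of -1.07 and -1.0, and their likeness was not tested. The extracellular superoxide dismutase Sod3 had an interaction of 2.22, not called. Secreted factors of senescence had 0.121; the protease Mmp3 and Igfbp3 rose in both backgrounds, by 3.09 and 3.27 and by 2.12 and 2.42, and Csf1 had -1.59, not called. Interferon response genes had 0.135, HOX genes 0.012, complement 0.014, unfolded protein response genes -0.05 and fibrillar matrix genes -0.405. Reported WT1 targets had 0.040, with 18 of 26 intervals inside -1 to 1, a share near that of all genes. None of these lists held a called interaction. The medians of the 8 cell type marker lists lay between -0.344 (adipocyte) and 0.17 (macrophage).

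The sex of the embryos was not even across groups. Xist, the X-inactivation RNA of female cells, was high in 5 of the 7 double arrays and in 2 of the 5 controls, in 1 of the 4 arrays without Wt1 and in 0 of 5 with the oncogene alone, and its own interaction was 4.50, not called. Sex moves with the groups, and with the Xist level as a covariate 0 interactions were called by limma; Trib3 was then 2.84 and Car6 2.07 (limma adjusted p = 0.706 for both). The oncogene effect was then called for 299 genes with Wt1 and 332 without it.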

How the data were processed

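RNA of 22 mouse embryonic fibroblast samples was hybridised to Affymetrix mouse genome arrays. The authors deposited log2 expression values made with RMA in Affymetrix Expression Console, per the submitters' processing notes and the design text; its version is not given in the sources used here. By name, the mutant oncogene is not reported here. The series describes 6 oncogene samples; 5 were used here. Of 45101 probe sets 34945 named 1 gene, and per gene the probe set with the highest mean was used (18193 genes). A 4-group linear model was fitted with limma 3.58.1 in R 4.3.3, with Benjamini-Hochberg adjustment; the script was tested on simulated data. Single effects were counted from 0.5 log2. The number of arrays limits the precision. Genes named are the 10 of largest or most significant interaction in each direction, 3 called members or 1 other per list, and 5 additive genes per direction; further list members were named for their role after their values were seen. Members and lists were chosen with earlier results of these data known. Replicate numbers were not used to pair samples in the main fit. Deviations of same-numbered arrays of different groups correlated with a median of 0.04 (-0.47 to 0.77). Other pairs of different groups had a median of 0 (-0.64 to 0.66). The check cannot exclude that some arrays are paired. Promoters are RefSeq, GRCm38.p6. Per-sample columns left unused: 0.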

Additional observations from a re-analysis of the deposited data

Results flagged for a closer look

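The interaction itself is a difference between backgrounds, and it passed the test for Trib3 (3.22) and Car6 (2.06). In 240 groups of 4 to 7 arrays, over the genes named, 25 had 1 array apart from the rest by Dixon's limit. Chance gives about 1 in 20 for independent groups, but these genes share the same arrays and were partly chosen by their interaction. Wt1-null replicates 3 and 4 are very close, so another array of that group stands apart more easily. The count is therefore not set against that rate. Wt1-null replicate 1 was that array most often: Car6 6.57, Acot2 9.38, Ddrgk1 10.14, Nrarp 7.73, Pom121 10.76, Pik3cb 7.92, Srf 9.49, Tpx2 10.64, Sod3 9.99, Adm 12.29 and Dock4 5.75. Wt1-null replicate 5 stood apart for Wdpcp (6.23). Among double arrays replicate 4 did for Trib3 (8.06), Fcer1g (6.88) and Crispld1 (7.07), replicate 1 for Fn1 (12.9) and Igf1r (9.27), and replicate 3 for Sod3 (6.5). Among oncogene arrays replicate 1 did for Artn (7.68) and replicate 5 for Simc1 (8.77). Among controls replicate 1 did for Pom121 (9.93) and Lss (10.8), replicate 2 for Cdkn2d (8.78) and Csf1 (10.89), and replicate 5 for Rbpj (10.6).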

How the results depend on the processing

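Counts of called genes moved with several choices; the cause was not tested unless stated. The 2 interactions became 0 with every probe set tested, quantile normalization repeated, a replicate block, accession set as a random block, Wt1-null replicates 3 and 4 averaged, oncogene 4 and double 4 left out, or Xist as a covariate; 1 with dim genes filtered out, which removes Car6; and 3340 with array weights, which gave Wt1-null replicates 3 and 4 the largest weights (3.63 and 3.71) and double replicate 4 the smallest (0.11). Leaving out 1 array gave 0 to 4. The oncogene effect with Wt1 (485) gave 789 with accession set fixed, 299 with Xist, 4438 with weights, 323 with the replicate block and 899 without both replicates 4, and 239 to 848 with 1 array left out. Without Wt1 (926) it gave 15 with Wt1-null replicate 2, 354 with the average, 332 with Xist, 32 and 277 with accession set fixed and random, 4204 with weights, 1537 with the replicate block and 1533 without both replicates 4, and 363 to 1164 with 1 array left out. Loss of Wt1 (13) gave 2 with the average, 5 with Xist, 5 and 3 with accession set fixed and random, 6547 with weights, 6 with the mean of probe sets, 47 without both replicates 4, and 2 to 71 with 1 array left out. Double against control (1285) gave 5960 with weights, 2221 without both replicates 4, and 814 to 1984 with 1 array left out. The 200 genes called in both gave 9, 130, 109, 20, 123 and 1041 with Wt1-null replicate 2, the average, Xist, accession set fixed and random, and weights, and 119 to 273 with 1 array left out; the 109 inside the margin gave 5, 58, 39, 5, 50 and 804, 165 over every probe set, 175 without both replicates 4, and 51 to 163. The interaction of Lss turned to -0.18 with the mean of its probe sets. The median interactions of the mitosis (-1.65 to -0.86), MAPK output (-1.0 to -0.59) and ATF4 (0.64 to 0.95) lists kept their sign in the 14 alternatives. Applying the alternatives to the counts called in both, and to list medians, was chosen after seeing the data.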
